A study of Vitis vinifera and Vitis vinifera
Schisandra chinensis with 13 samples.

Results

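The degradome table listed 8858 predicted miRNA target sites, and 1971 of them (22.3%) belonged to PC miRNAs, which carry names that begin with PC-. The authors took these as candidates that mapped to no listed miRNA or precursor and predicted them from hairpins of the grapevine genome. Even so, 22 of those with sites lay within 2 mismatches of a known-named miRNA. A site is 1 alignment of 1 miRNA to 1 transcript, so each isoform of a gene holds a site of its own. All 1971 sites were taken, whether or not degradome reads had been found at them. They came from 368 PC miRNAs and lay on 1264 transcripts of 813 genes, which made 1342 pairs of miRNA and gene. The other 6887 sites belonged to 413 known miRNAs and were used only for comparison. The miRNA table held counts for 357 of the 368 PC miRNAs, and the other 11, with 79 sites, were not analysed for abundance here. It listed 605 PC names in all, of which 248 had no predicted site.

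Vs hybrids were scions of Vitis vinifera 'Hongruibao' on rootstocks of wild Schisandra chinensis, a woody vine of another plant family. Vv plants were self-rooted grapevines of the same cultivar, and both kinds received no special treatment and were sampled at 25 years. For each of 3 Vs hybrids and 3 Vv plants, RNA from leaves, phloem and entire ripe berries was mixed, and each mix gave 1 miRNA library and 1 RNA-seq library. A difference therefore cannot be assigned to an organ, and fewer cells of a type cannot be told apart from less RNA per cell. The degradome was 1 library from all 6 RNA samples mixed, although its type label reads self-rooted. It had no replicate, so detection of a site could not be compared between Vs hybrids and Vv plants, and shares of sites detected are given below without a test. The miRNA libraries held 1027871 to 1322783 counts in Vs hybrids and 1376351 to 1738257 in Vv plants, with entries of identical counts used once. The depth of the degradome library is not part of the table used here.

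Plant miRNAs are cut from hairpin precursors by DICER-LIKE enzymes and loaded into ARGONAUTE proteins, which slice mRNAs that pair with the miRNA along nearly its whole length. Slicing falls opposite the middle of the miRNA, and the downstream mRNA piece keeps an uncapped end that degradome sequencing reads. Most conserved plant miRNAs are 21 nt long, whereas 24-nt small RNAs of plants mostly arise from repeats and guide DNA methylation in place of mRNA slicing. A lack of reads does not show that a site is uncut. Nor do reads at a site show that the miRNA cut it. A cut below means the position of the reads listed for a site.

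The PC miRNAs with the most sites, the most detected sites or the most degradome reads are shown first, since the detected sites turn largely on them. Bases 2 to 8 from the 5′ end, the seed, are in capitals.
PC-5p-284876_17: tTTCTCTTctctttttggtgt
PC-5p-1154_2732: tCTCACCAtctccttaaaatc
PC-3p-10914_430: tTTTAAGGagatggtgaaaga
PC-5p-146112_36: aTTGACATcatctaacataac
PC-3p-3077597_2: tTAGTTTAattatattggttgatg
PC-3p-1535940_3: aATAATAAtgaagtatctttt
PC-5p-834650_5: tTCTCAGCtgctaatatcaaa
PC-3p-1136730_4: aTTTTTTGtacccttactcacatt
PC-3p-169_19241: gTTGGAAGtcggtgggggaac
The first of these, PC-5p-284876_17, opens with a long run of T and C. Its hairpin lay on the minus strand of the genome sequence NC_012011.3 at 3037243 to 3037389. PC-5p-1154_2732 and PC-3p-10914_430 are both arms of 1 hairpin, on the minus strand of NC_012016.3 at 16111381 to 16111602. Coordinates are those of the miRNA table, and the sources used here do not name its genome build.

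The 5 PC miRNAs whose counts differed between Vs hybrids and Vv plants are given next, 4 of them 24 nt long.
PC-5p-39943_146: tGGCAAGGtgaattactcatgat
PC-5p-6695_620: tGGTTGGCtgtatatagtatgaga
PC-5p-72217_80: tACACATGtagtgccatcatatga
PC-3p-201983_25: aATTTTGGaaatgtaaatatgaat
PC-3p-76913_74: aCTTTAGTtatgttgcatgatatc
No seed was shared among these 5 or between them and the set above.

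The third set holds 2 PC miRNAs beside the known-named miRNA that each repeats with 1 base more, and the 3 PC miRNAs with a detected cut at the same base of a peroxidase transcript.
PC-5p-3262_1082: aGAAGAGAgagagtacagcta
ath-MIR156j-p5_2ss14CT19TC: aGAAGAGAgagagtacagct
PC-3p-286003_16: aAAACAAGaaaaaaggacct
ppe-MIR169h-p3_2ss6TA17GC: aAACAAGAaaaaaggacct
PC-3p-1339190_3: aAAAACACtttttagaatcacgct
PC-3p-898216_5: aAAAACACttcctaaaatcattgt
PC-3p-1760359_3: aAAAACGTtttctagaatcactgt
PC-3p-1339190_3 and PC-3p-898216_5 have the seed AAAACAC in common, and PC-3p-1760359_3 has another.

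Degradome reads were found at 117 of the 1971 PC sites (5.94%), against 1442 of the 6887 known sites (20.9%). Of all sites listed, 17.6% were detected. Counted by miRNA and gene, 55 of 1342 PC pairs (4.10%) and 698 of 4223 known pairs (16.5%) had a detected site. The 117 sites belonged to 32 PC miRNAs (8.70%) and 51 genes, whereas 220 known miRNAs (53.3%) had a detected site. Sites of 1 miRNA, 1 gene or 1 set of isoforms share their reads, so these shares count alignments and not independent events.

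The reads at detected PC sites were few. They numbered 1 to 21 per site with a median of 2, and 1 to 3691 with a median of 3 at known sites. A single read supported 50 of the 117 PC sites (42.7%) and 419 of the 1442 known ones (29.1%), and 10 or more reads supported 16 PC sites (13.7%) and 432 known ones. The table grades each cut from category 0, where its reads are the highest on the transcript, through category 1, where that maximum is tied, category 2, above the median of the transcript, and category 3, at or below the median, to category 4, a single read. PC sites numbered 0 in category 0, 1 in category 1, 65 in category 2, 1 in category 3 and 50 in category 4. Known sites numbered 372, 20, 610, 21 and 419 in the same order, so categories 0 and 1 together held 0.855% of the detected PC sites and 27.2% of the detected known sites. The degradome p listed for each detected site was under 0.05 at 1 PC site and at 331 known sites. Its median was 0.973 over the PC sites and 0.976 over the known sites. A p near 1 does not set such reads apart from ends of mRNA degraded in other ways. The degradome p of PC sites was lower where a miRNA had fewer predicted sites. For PC miRNAs with 60 or more sites the lowest value was 0.758 over 42 detected sites, for those with 10 to 59 sites it was 0.488 over 37, and for those with fewer than 10 it was 0.00278 over 38. The cut lay opposite miRNA base 10 at 113 of the 117 PC sites and opposite base 9 at the other 4. Known sites had 1249 at base 10, 45 at base 9 and 148 at base 11. No detected site of either kind lay elsewhere. The position thus goes with how sites were called and is no separate sign of slicing.

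**Figure D1:**
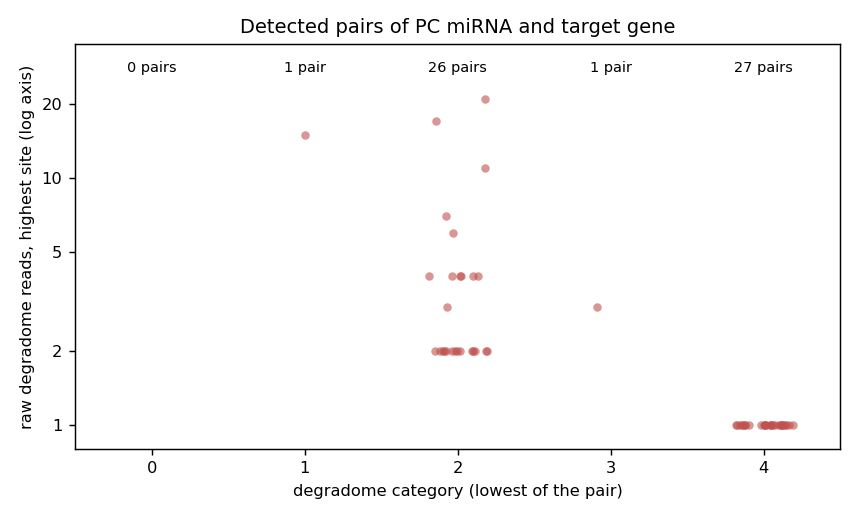
Raw degradome reads (log axis) of the 55 detected pairs of PC miRNA and target gene by degradome category. Each point is 1 pair at its site of most reads, and its horizontal place within a category is random. Category 0 is empty, category 1 holds 1 pair of 15 reads, and the 27 pairs of category 4 have 1 read each.

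How well a PC miRNA paired with its transcript did not order the detected sites. The alignment score counts mispairings, so 0 is perfect pairing and 4 was the highest score listed. PC sites of score 4 were detected in 66 of 1016 cases (6.50%), those of score 3.5 in 29 of 418 (6.94%), of score 3 in 15 of 311 (4.82%), of score 2 in 5 of 79 (6.33%) and of score 1.5 in 2 of 16 (12.5%). At score 2.5 the count was 0 of 120, which allows a share of up to 2.50% if each site counts as independent. These 120 sites were 93 pairs on 55 genes, so this limit and those given below for other counts of 0 are too low. Known sites were detected in 16.1% of cases at score 4, 17.1% at 3.5, 24.4% at 3, 30.9% at 2.5 and 44.1% at 2. Their share did not rise steadily below that, at 33.0% for 1.5, 45.7% for 1, 58.8% for 0.5 and 16.9% (10 of 59) for 0. For scores of 1 and below, 0 of 11 PC sites were detected, which allows up to 27.3%, against 109 of 266 known sites (41.0%). The 2 kinds had similar shares at score 4, with 51.5% of PC sites and 53.6% of known sites. Well-paired sites were rarer among PC miRNAs, with 11 of 1971 sites at scores of 1 and below, against 266 of 6887 known sites.

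**Figure D2:**
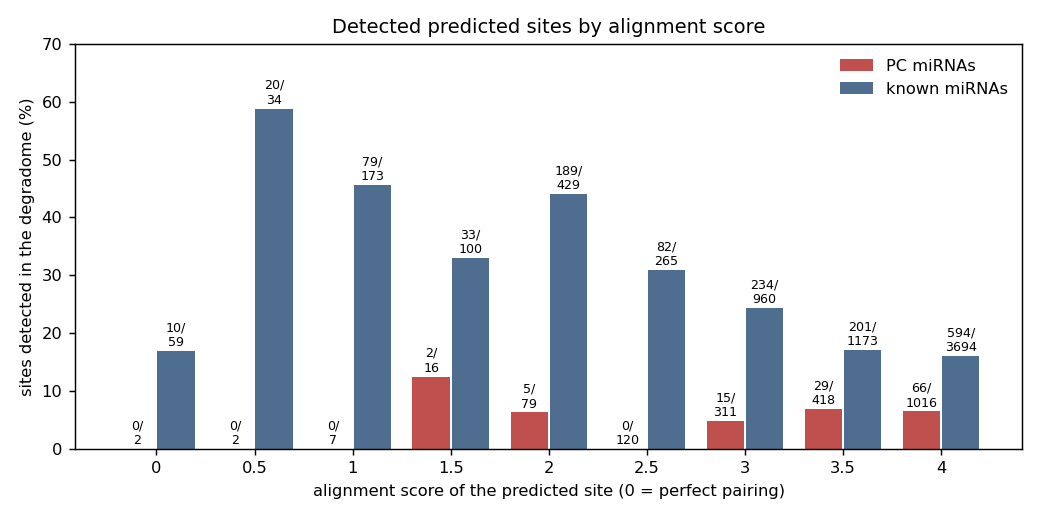
Share of predicted sites with degradome reads (%) by alignment score, for PC miRNAs (red, left bar) and known miRNAs (blue, right bar). The fraction above a bar is detected over predicted sites. PC bars stay between 0 and 12.5%, while the known bars reach 58.8% at score 0.5.

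The 11 PC sites of score 1 or less belonged to 10 miRNAs and 8 genes, most of them with little mRNA. Mean FPKM of the 8 genes over the 6 RNA-seq libraries ranged from 0.00708 to 8.43, with a median of 1.22. Genes are named as the deposited FPKM table pairs its values with IDs. That pairing is in doubt, so each mRNA value and mRNA fold change in the text and plots, those of marker genes included, may belong to another gene than the one named. PC-3p-11830_405, a 21-nt miRNA with a mean of 54.5 CPM (its count scaled to the miRNA total of a library), paired perfectly with bases 643 to 663 of the unannotated transcript MSTRG.19991.1. Its sequence is given because the site is perfect and yet without reads.
PC-3p-11830_405: gCACAAGGaagtaaaattata
The mRNA of MSTRG.19991 was at 3.09, 3.11 and 4.24 FPKM in Vs hybrids and 4.33, 7.43 and 4.08 FPKM in Vv plants. The other perfect site was that of PC-5p-1729423_3, a 25-nt miRNA with a mean of 0.372 CPM, on VIT_15s0045g00200, whose mean FPKM was 0.0483.

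PC miRNAs of 21 nt had the highest share of detected sites. Of 653 sites of the 59 PC miRNAs of 21 nt, 70 (10.7%) were detected, and the share was 39 of 519 (7.51%) without PC-5p-284876_17. The 281 PC miRNAs of 24 or 25 nt, which made up most of the 368, had 929 sites, of which 30 (3.23%) were detected. Many of them belong to 2 large groups of related sequences, described below. Outside these groups, 24-nt miRNAs had 14 of 197 sites detected (7.11%), close to the 7.51% at 21 nt. Those of 18 to 20 nt were 4 miRNAs with 262 sites and 13 detected (4.96%), those of 23 nt had 4 of 86 (4.65%), and those of 22 nt had 0 of 41, which allows a share of up to 7.32%. Known miRNAs differed in this order, with 22.7% at 21 nt, 35.4% at 22 nt, 45.0% at 23 nt and 1.61% at 24 nt and over. Among sequences of 24 nt and over, the detected shares of PC and known miRNAs thus lay closer together than at the other lengths. A first base of A was found in 51.1% of the 24-nt PC miRNAs, and a first base of T in 40.7% of those of 21 nt.

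Most PC miRNAs with predicted sites were rare. Their mean over the 6 libraries ranged from 0 to 1463 CPM with a median of 1.35 CPM, 134 of 357 (37.5%) were below 1 CPM, and 162 had fewer than 10 counts in all 6 libraries together. Sites of miRNAs under 1 CPM were detected in 21 of 634 cases (3.31%), those of 1 to 10 CPM in 73 of 1045 (6.99%, or 4.61% without PC-5p-284876_17), and those above 10 CPM in 23 of 213 (10.8%). Known miRNAs of the same classes had 15.3%, 22.5% and 23.7%. The 79 sites of PC miRNAs that were not matched to counts held 0 detected sites, which allows up to 3.80%. Over the 357 PC miRNAs, Spearman's rho of mean CPM and the share of sites detected was 0.0984. It was 0.34 over the 58 of 21 nt and -0.03 over the 264 of 24 nt. These points share target genes, isoforms and 1 degradome library, so rho is given as a description. Above 10 CPM the 21 miRNAs of 24 nt and over had 0 detected of 46 sites, which allows up to 6.52%. The 12 of 21 nt had 20 of 156 (12.8%). Of these 20, 13 lay among the 43 sites of 1 hairpin, that of PC-5p-1154_2732 and PC-3p-10914_430. Both the share of the class above 10 CPM and its difference between lengths thus lean on 1 hairpin.

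**Figure D3:**
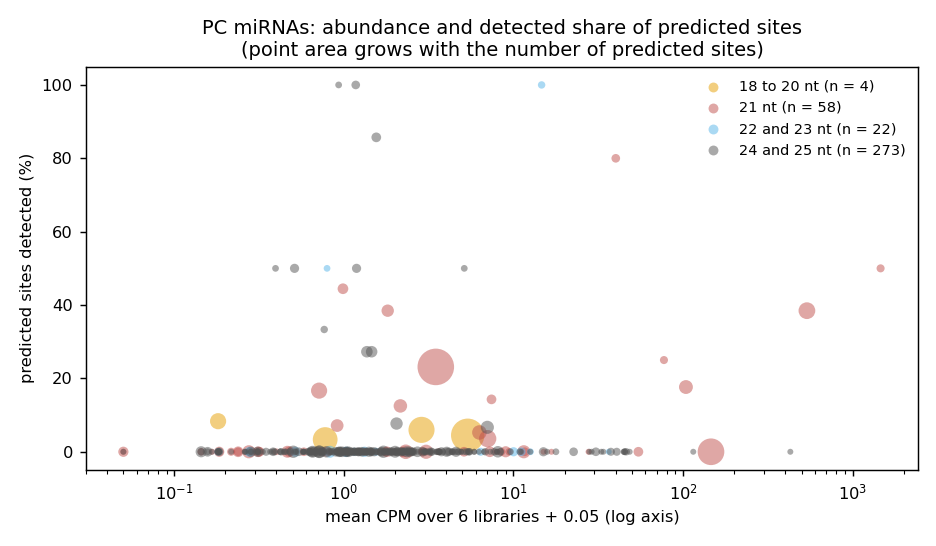
Share of a PC miRNA's predicted sites that were detected (%) against its mean CPM over the 6 libraries, with 0.05 added, on a log axis. Each point is 1 of 357 PC miRNAs, its color gives the length and its area grows with the number of predicted sites. Most points lie at 0% at every abundance, and the largest point above 0 is PC-5p-284876_17 with 134 sites.

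The 32 PC miRNAs with a detected site had more predicted sites to begin with. Their median was 11 sites and 1.88 CPM, against 2 sites and 1.31 CPM for the 325 others in the miRNA table, and rho between the number of sites and of detected sites was 0.34 over the 368. Of the 32, 43.8% were 21 nt and 37.5% were 24 nt long, against 13.5% and 77.5% of the 325. A single predicted site was all that 113 PC miRNAs had. At the other end, PC-5p-284876_17 had 134 sites on 80 genes, PC-3p-286003_16 111 on 84, PC-5p-3262_1082 70 on 46, PC-3p-488945_9 67 on 41 and PC-5p-1646393_3 60 on 30, together 442 sites (22.4%). Detected among these were 31, 5, 0, 4 and 2 sites in the same order.

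Many PC miRNAs were close relatives of one another. Linking those that share 12 bases on either strand, a grouping chosen after the sequences were seen, left 114 alone and placed 254 in 22 groups. The largest held 144 miRNAs, 129 of them 24 nt long, with a median of 1.16 CPM. It accounted for 734 sites (37.2%) on 124 genes, of which 17 sites (2.32%) were detected. Up to 41 of its members were predicted on 1 gene, MSTRG.977, where 0 sites were detected. The second group held 67 miRNAs, of which 46 share 12 bases with a miRNA named miR3631, and had 2 of 159 sites detected (1.26%). Outside both groups 98 of 1078 sites (9.09%) were detected. In the largest group, 27 miRNAs were predicted on VIT_02s0012g00540, a peroxidase gene, with 81 sites on 3 transcripts. Its 9 detected sites came from PC-3p-1339190_3, PC-3p-898216_5 and PC-3p-1760359_3, whose alignments end at the same base and place the cut at base 1061 of VIT_02s0012g00540.t01. All 3 list 2 reads there, so the reads are the same and cannot be divided among the miRNAs. Such shared positions numbered 4, on transcripts of 2 genes, and the reads of the 117 detected sites lay at 110 positions.

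The most reads lay on LHY (VIT_15s0048g02410), a MYB-related transcription factor that in Arabidopsis belongs to the core of the circadian clock. PC-5p-284876_17 was aligned to 12 isoforms of LHY with a score of 4, and each carried 16 to 21 raw reads. The isoforms share these reads, and the normalized value listed was 1.6 to 2.1 per isoform, 10 times below the raw count. The sites were of category 2 with a degradome p of 1. The same miRNA had its other 19 detected sites on other genes with no more than 4 reads, the highest on PSL4, which is annotated to N-glycan processing.

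CR88 (VIT_01s0010g00680), the chloroplast HSP90 chaperone in Arabidopsis, carried 17 reads at base 2222 of its transcript, where PC-5p-146112_36 was aligned to bases 2211 to 2231 with a score of 3. Raw and normalized reads were equal here, the cut was of category 2 and its degradome p was 0.371. It was the one predicted site on CR88 for any PC or known miRNA. PC-5p-146112_36 had 6 other predicted sites, 4 of them with scores of 2 or 2.5, and none was detected.

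The cut of category 1 lay on VIT_05s0020g04610, annotated as a protein kinase gene. PC-3p-3077597_2 was aligned to bases 2368 to 2391 with a score of 4, and 15 reads at base 2382 gave a degradome p of 0.00278, the lowest of the PC sites. This short stretch was crowded, since 39 PC and 29 known miRNAs had a site each between bases 2334 and 2484, and 37 of the 39 belonged to the second group of related sequences. Of the 35 other sites that overlap the 15-read site, 16 were PC, and 1 was detected. That one belonged to vvi-miR3631b-3p at bases 2359 to 2379, with a score of 2.5 and 1 read at base 2370. The alignment of PC-3p-3077597_2 was the one that ended at base 2391 and so put base 10 of its miRNA opposite the cut. PC-3p-3077597_2 itself had 0.5, 1 and 2 counts in Vs hybrids and 3, 0 and 0 in Vv plants.

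Sites with 4 to 11 reads lay on genes of several kinds. VIT_06s0004g01030 carried 11 reads for PC-3p-1535940_3. LACS8 (VIT_12s0057g01270), a long-chain acyl-CoA synthetase, an enzyme class that activates fatty acids, carried 7 reads for PC-5p-834650_5, at base 1054 of its annotated transcript. PC-5p-1154_2732, at a mean of 538 CPM, had 6 reads on VIT_11s0016g05740 and 4 on VIT_15s0048g01240, annotated to DNA binding and protein dimerization. With its hairpin partner PC-3p-10914_430 it had 13 of 43 sites detected (30.2%). A count of 4 reads was listed for PC-3p-286003_16 on VIT_06s0004g00440, an annotated membrane protein, for PC-5p-1646393_3 on VIT_05s0020g01770, annotated to receptor kinase signaling, and for PC-5p-292464_16 on VIT_02s0025g04660, a magnesium dechelatase of the kind that starts chlorophyll breakdown. The same 4 reads are listed for its neighbor in name, VIT_02s0025g04670. The category 3 site was that of PC-3p-193254_26 on CM1, a chorismate mutase of aromatic amino acid synthesis, with 3 reads. The detected site of best pairing, with a score of 1.5, was that of PC-3p-169_19241 on VIT_18s0001g12680 at bases 576 to 596, with 2 reads at base 587 and a degradome p of 0.71. In all, 24 pairs had 2 to 9 reads, 4 had 10 or more, and the other 27 had a single read.

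Some PC sites repeat the sites of known miRNAs. PC-5p-3262_1082 is ath-MIR156j-p5_2ss14CT19TC with 1 base more at the 3′ end, and both hairpins lie on the minus strand of NC_012011.3, at 19124461 to 19124568 and at 19124462 to 19124569. They shared 43 predicted genes, 93.5% of the PC and 48.3% of the known list. Detected were 0 of 70 sites of PC-5p-3262_1082 and 4 of 152 sites of the known form, each with 1 read. PC-3p-286003_16 has 1 base more at its 5′ end than ppe-MIR169h-p3_2ss6TA17GC, shared 75 genes with it (89.3% of its own and 63.0% of the known list), and had 5 of 111 sites detected, against 12 of 170. In total, 269 PC sites overlapped a site of a known miRNA on the same transcript and 42 overlapped a detected one. None of the 117 detected PC sites was cut at the base of a detected known site. Of the 813 genes, 212 were also predicted for known miRNAs, which is 26.1% of the PC and 7.98% of the known target genes, and 5 genes had detected sites of both kinds.

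Whether grafting onto S. chinensis went with other levels of these miRNAs was tested across the whole miRNA table. Of 332 miRNAs with enough counts, 20 (6.02%) differed between Vs hybrids and Vv plants by edgeR's quasi-likelihood test at an adjusted p under 0.05, 13 of them lower in Vs hybrids (3.92%). Of the 51 PC miRNAs with predicted sites among the 332, 5 (9.80%) passed, 1 higher and 4 lower in Vs hybrids. The others of the 357 were too rare to be tested. The median log2 fold change was 0.49 over the 51, with 37 above and 14 below 0, against -0.03 over the 332. Of the 32 PC miRNAs with a detected site, 7 could be tested and 1 passed.

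PC-5p-39943_146 was the 1 of these 7. It had 0, 1 and 0 counts in Vs hybrids, against 50.5, 65 and 24.5 in Vv plants. The groups did not overlap, and the 1 count in Vs hybrids amounted to a ratio of 0.00956 to Vv plants, with a counting interval (95%, exact binomial) of 0.00024 to 0.0542. The fitted log2 fold change was -6.26 (SE 0.90, adjusted p = 0.00864 by edgeR), and it missed the threshold without Vs replicate 2 (0.0584) or 3 (0.0535). All 3 of its predicted sites were detected with 1 read each, on isoforms of VIT_19s0085g01000, annotated to ubiquitin transfer and the response to wounding. The mRNA of this gene was at 17.8, 21.8 and 23.1 FPKM in Vs hybrids and 18.3, 19.03 and 13.97 FPKM in Vv plants, so the groups overlapped (log2 fold change 0.28, adjusted p = 0.467 by limma).

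The other 4 that passed had 1 to 3 predicted sites each, none of them detected. PC-5p-6695_620 had 8, 7 and 4 counts in Vs hybrids and 143, 71.5 and 191.5 in Vv plants (log2 fold change -3.97, SE 0.64, adjusted p = 0.00864 by edgeR). Its predicted gene was VIT_17s0000g05080, a subunit of the cleavage stimulation factor, which acts in mRNA 3′ end formation. PC-5p-72217_80, aligned to the unannotated VIT_06s0009g00450, had 4, 7 and 3 counts in Vs hybrids and 95, 58 and 100 in Vv plants (-3.68, SE 0.60, adjusted p = 0.00864). PC-3p-201983_25 had 2, 2 and 0 counts in Vs hybrids and 17, 21 and 24 in Vv plants (-3.43, SE 0.73, adjusted p = 0.0298). In all 3 the groups were far apart, and each Vs library was below each Vv library. PC-3p-76913_74 was the one that was higher, with 18, 11 and 21.5 counts in Vs hybrids and 3, 2 and 5.5 in Vv plants (log2 fold change 2.56, SE 0.56, adjusted p = 0.0330). Without Vs replicate 2 or without Vs replicate 3, 0 of the 5 passed. PC-3p-201983_25 also lost its call without Vs replicate 1 (adjusted p = 0.0601), Vv replicate 2 (0.0591) or Vv replicate 3 (0.0535). PC-3p-76913_74 also lost its call without Vs replicate 1 (adjusted p = 0.0545), Vv replicate 1 (0.0640) or Vv replicate 2 (0.0652) and without the filter on low counts (0.0758).

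The PC miRNAs with most detected sites did not pass or were too rare for the test. PC-5p-284876_17, which carried the LHY sites, had 0 counts in each of the 3 Vs hybrids and 11, 17 and 5 counts in Vv plants. A count of 0 allows up to 3 counts over the Vs libraries, or 0.846 CPM, and the miRNA was not tested. PC-5p-1154_2732 had 529.5, 644.5 and 1145 counts in Vs hybrids and 706.5, 478 and 782.5 in Vv plants, and its groups overlapped (log2 fold change 0.66, adjusted p = 0.373). PC-3p-169_19241, the most abundant at a mean of 1463 CPM, had 3131, 794 and 614.5 counts in Vs hybrids and 3109.5, 3520 and 1467 in Vv plants (-0.43, adjusted p = 0.696). PC-5p-3262_1082 had 73, 90 and 40 counts in Vs hybrids and 256, 481 and 351 in Vv plants. Its groups did not overlap, but the log2 fold change of -1.96 had an adjusted p of 0.0778 by edgeR. PC-5p-146112_36, aligned to CR88, had 4.5, 12 and 3.5 counts in Vs hybrids and 9.5, 12.5 and 17.5 in Vv plants and was not tested.

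**Figure D4:**
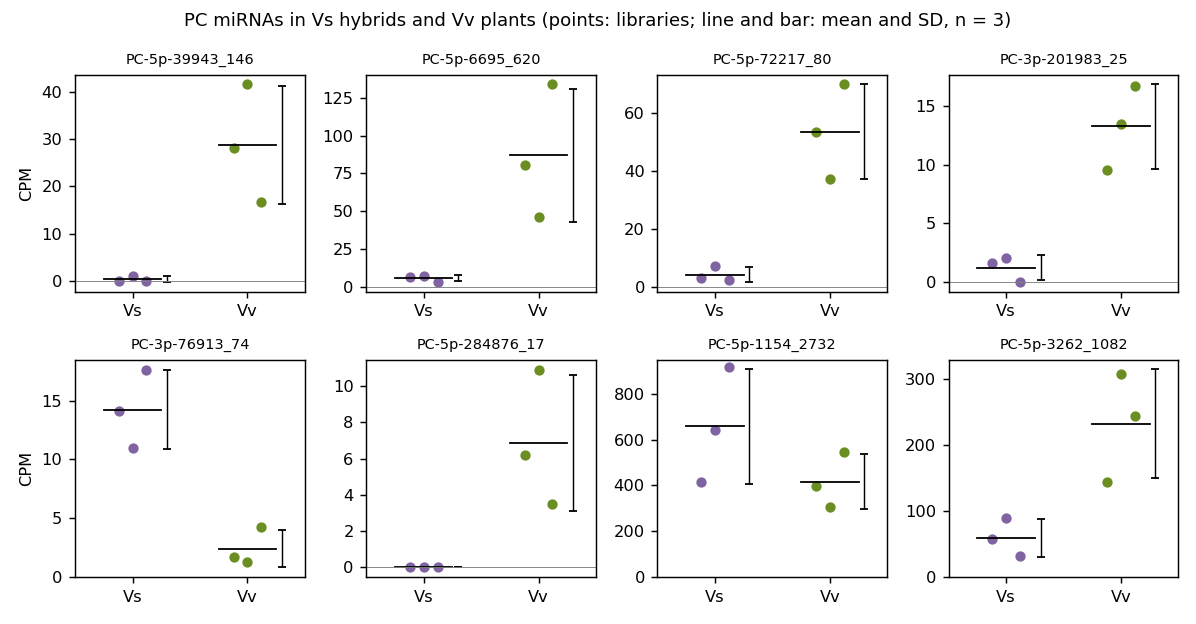
CPM of 8 PC miRNAs with predicted sites in the 3 Vs libraries (purple) and the 3 Vv libraries (green), with the mean as a line and the SD as a bar. The first 5 panels are the miRNAs that passed edgeR's test, of which PC-3p-76913_74 is higher in Vs. PC-5p-284876_17 lies at 0 in all 3 Vs libraries, and the Vs and Vv points of PC-5p-1154_2732 overlap.

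Target mRNAs were compared in the same way over the 15447 genes whose mean reached 1 FPKM, of which 68 (0.44%) passed limma's test on log2(FPKM + 1) at an adjusted p under 0.05. Of the 553 predicted target genes among them 1 passed, and 142 (25.7%) had an unadjusted p under 0.05, against 20.9% of all genes. This count moved to 93 of 552 (16.8%, against 14.5% of all genes) after median-ratio scaling, to 92 of 553 (16.6%, against 15.2%) without Vs replicate 1 and to 83 of 541 (15.3%, against 13.98%) without Vv replicate 2. Their median log2 fold change was -0.28, close to the -0.25 of all genes. Scaling the libraries by median ratios moved the median of all genes to -0.01 and that of the target genes to -0.04. Genes are named by that same doubtful pairing of values with IDs.

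The gene that passed was VIT_03s0038g02650 (MSTRG.13191), annotated as a protein serine/threonine phosphatase. It was at 5.84, 7.41 and 6.85 FPKM in Vs hybrids, against 23.3, 23.1 and 28.4 FPKM in Vv plants, and the groups were well apart. Its log2 fold change was -1.75 (SE 0.19, adjusted p = 0.0286 by limma), or -1.50 relative to the median of all genes. The adjusted p was 0.0503 after median-ratio scaling and 0.0616 to 0.139 without any 1 of the 6 libraries. Its predicted sites were those of PC-3p-286003_16, with a score of 4 and no degradome reads, and this miRNA had 0, 2 and 0.5 counts in Vs hybrids and 3, 7 and 34 in Vv plants.

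Of the 51 genes with a detected PC site, 47 were tested and 0 passed by limma, with a lowest adjusted p of 0.130. An unadjusted p under 0.05 was found in 15 of the 47, against 20.9% of all genes. After median-ratio scaling the share of all genes was 14.5%, and that of the 47 was not counted. Their log2 fold changes were above 0 in 13 and below 0 in 34, but 19 lay above and 28 below the median of all genes. These genes had more mRNA than the other targets. Their mean FPKM had quartiles of 5.33, 10.8 and 27.8 over 49 genes, against 0.963, 3.75 and 9.84 over the 681 target genes without a detected site. For known miRNAs the medians were 8.86 FPKM over 350 detected genes and 3.18 FPKM over 2027 others.

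LHY mRNA was at 121, 102 and 90.7 FPKM in Vs hybrids and 134, 133 and 34.7 FPKM in Vv plants (log2 fold change 0.28, SE 0.55, adjusted p = 0.788 by limma). All Vs values lay inside the range of the Vv values, of which that of replicate 3 was the lowest, and without that library the log2 fold change was -0.36. CR88 was at 38.3, 56.002 and 90.8 FPKM in Vs hybrids and 39.6, 49.3 and 26.4 FPKM in Vv plants (0.63, SE 0.39, adjusted p = 0.38). The kinase gene VIT_05s0020g04610 was low and variable in both groups, at 0.40, 3.72 and 4.06 FPKM in Vs hybrids and 0.65, 5.60 and 5.82 FPKM in Vv plants (-0.38, adjusted p = 0.78), and the log2 fold change was 0.22 without Vs replicate 1.

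Further genes had Vs and Vv values apart from each other without passing, or a library apart from its group. LACS8 was at 38.6, 54.6 and 49.9 FPKM in Vs hybrids and 63.7, 83.4 and 75.3 FPKM in Vv plants (log2 fold change -0.63, SE 0.23, adjusted p = 0.214 by limma). The magnesium dechelatase gene VIT_02s0025g04660 was at 3.46, 14.5 and 15.5 FPKM in Vs hybrids and 25.3, 34.2 and 73.97 FPKM in Vv plants (-1.98, adjusted p = 0.182). In both genes every Vs library was below every Vv library, and the share of all genes with such a separation was not counted. Relative to the median of all genes, the log2 fold changes were -0.38 for LACS8 and -1.72 for the magnesium dechelatase gene. After median-ratio scaling that of LACS8 was -0.34 (adjusted p = 0.464 by limma). VIT_06s0004g00440 was listed at 0 FPKM in Vs replicates 1 and 2 and at 147.5 in Vs replicate 3, against 119, 123 and 162 FPKM in Vv plants, so 1 Vs library was at the Vv level. Its adjusted p by limma was 0.238 with all libraries and 0.00334 without Vs replicate 3.

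Leaf and phloem markers were checked in the same libraries. The 3 of 6 leaf markers found by symbol, LHCA1, LHCB5 and GPRI1, summed to 2000 to 3337 FPKM in Vs hybrids and 194 to 1606 FPKM in Vv plants, where replicate 3 was the lowest. The 2 of 5 phloem markers found, APL and NAKR1, summed to 3.98 to 10.03 FPKM in Vs hybrids and 5.26 to 7.08 FPKM in Vv plants. They leaned opposite ways, with the groups overlapping in each. APL was at 4.91, 5.61 and 3.18 FPKM in Vs hybrids and 2.29, 3.20 and 1.58 FPKM in Vv plants. NAKR1 was at 1.27, 4.42 and 0.80 FPKM in Vs hybrids and 4.68, 2.06 and 5.50 FPKM in Vv plants. Of the ripe berry markers, 0 of 5 were found by symbol. The part of the leaf share in the mRNA differences was not tested.

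**Figure D5:**
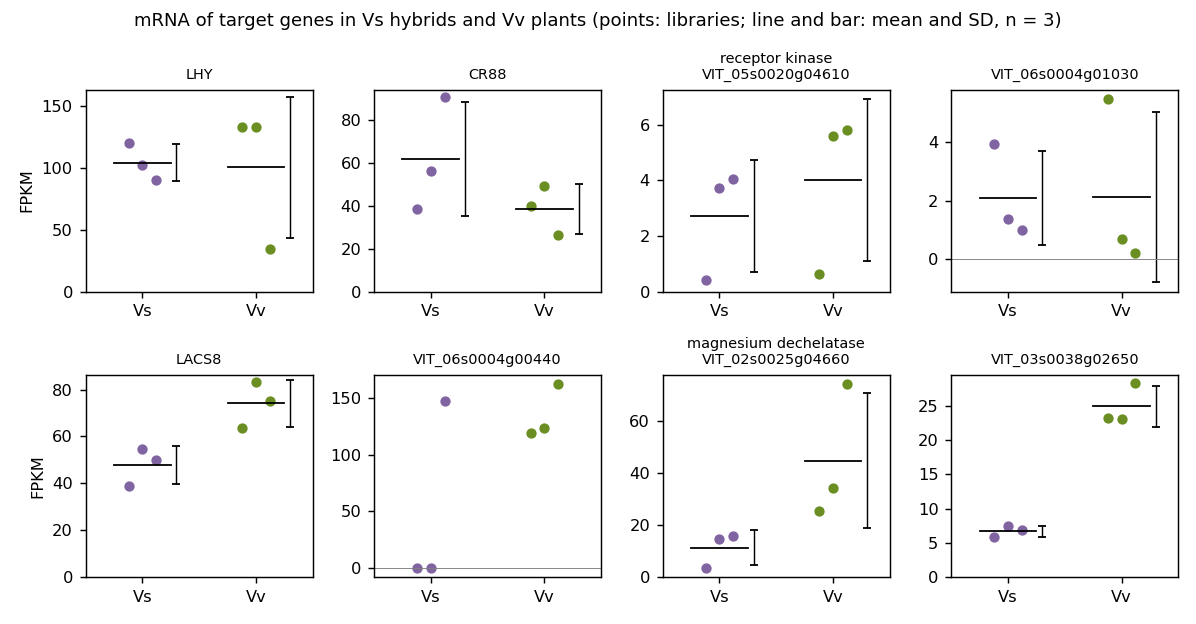
FPKM of 8 target genes of PC miRNAs in the 3 Vs libraries (purple) and the 3 Vv libraries (green), with the mean as a line and the SD as a bar. VIT_06s0004g00440, listed at 0 in 2 Vs libraries, is drawn without mean and SD. Only VIT_03s0038g02650 among the 8 passed limma's test, and in it the Vs values of 5.84 to 7.41 FPKM lie below the Vv values of 23.1 to 28.4 FPKM.

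Grouped by the GO terms of the tables, which 701 of the 813 genes carry, the share of PC sites detected was highest in genes annotated to ubiquitin and to transcription. Sites on isoforms of 1 gene count separately here. Ubiquitin genes had 5 of 22 sites detected (22.7%, against 23.5% for known sites), on 2 of 14 genes. Genes annotated to transcription factor activity or to regulation of transcription had 26 of 128 (20.3%, against 44.8%), on 7 of 52 genes. Of the 26, 12 were the isoforms of LHY. The 7 genes included the magnesium dechelatase gene VIT_02s0025g04660 and its neighbor in name, VIT_02s0025g04670. Hormone signaling genes had 10 of 89 (11.2%, against 65.1%), on 2 of 6 genes, the highest share by gene, and 9 of the 10 were the peroxidase sites. Protein kinases had the most sites, 10 of 215 detected (4.65%, against 7.60%), on 5 of 61 genes. Oxidation and reduction genes had 11 of 198 (5.56%, against 14.2%), membrane transport 5 of 100 (5%, against 14.3%) and RNA binding 5 of 120 (4.17%, against 14.6%). Genes of ADP binding and defense had 1 of 47 (2.13%, against 9.09%), and translation genes 0 of 20, against 32.2%. No PC site was predicted on a gene of salicylic acid synthesis. Between Vs hybrids and Vv plants, 0 genes passed limma's test in any of these lists, which held 5 to 39 tested genes each apart from the empty one.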

How the data were processed

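Per the labels and methods, each of 3 Vs hybrids and 3 Vv plants, 25 years after grafting, gave pooled RNA of leaves, phloem and berries, and replicates are separate plants. The authors trimmed small RNA reads, kept 18 to 25 nt and named miRNAs with ACGT101-miR; the deposited estimated counts are partly fractions (29.6%) and were rounded. Entries with identical counts in all 6 libraries (1178 entries, 972 left) were used once. The authors mapped RNA-seq reads with HISAT and estimated FPKM with StringTie, as deposited. They called degradome cuts with CleaveLand on 1 mixed library: the deposited table gives raw read counts, a normalized score per site, an alignment score and a p-value per site. The normalized miRNA columns were not used here.

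PC sites are all entries whose miRNA name begins with PC-. miRNA counts were fitted with edgeR 4.0.16 (TMM, filterByExpr, quasi-likelihood test) and FPKM with limma 3.58.1 on log2(FPKM + 1), a pseudocount of 1, for genes whose mean reached 1 FPKM, in R 4.3.3, with Benjamini-Hochberg adjustment over all features and a threshold of 0.05. A fold change on this scale understates the change of low genes. CPM used the total of rounded counts of the miRNAs kept by filterByExpr, scaled by TMM. Both fits were run on simulated data. The simulated mRNA values were raised far above the real ones and had the same spread for every gene. Simulated miRNA counts had a fixed dispersion. This checked the code and not the error rates at the low, variable values here. A count of 0 was taken to allow 3 counts, and intervals and floors cover counting error only. For shares of sites this takes each site as independent, although sites share isoforms, genes and reads, so such limits are too low. Sites, classes of length and abundance, and Spearman's rho were described without a test.

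Named were the PC miRNAs with a cut of category 0 or 1 or a degradome p under 0.05, the 5 with most detected and with most predicted sites, the 5 of highest CPM, all that passed edgeR, the 10 pairs of most reads and the detected pairs of the lowest score. Genes, lists and rules were chosen with earlier results of these data known. DESeq2 1.42.0 and the other alternatives are in the closing section. With 3 plants a group, only the spread between plants is measured.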

Additional observations from a re-analysis of the deposited data

How the results depend on the processing

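Of the 1971 PC sites 5.94% were detected, but 4.10% when counted by pair of miRNA and gene, 4.10% for scores of at most 3, 3.35% with categories 0 to 2, 0.812% with at least 10 raw reads, 0.0507% with a degradome p under 0.05, and 4.68% without PC-5p-284876_17. In 2 alternatives chosen after seeing the data, it was 9.09% without the 2 largest groups of related sequences and 6.18% without the miRNAs that have no counts here. The known sites gave 16.5%, 32.0%, 14.5%, 6.27% and 4.81% under the first 5 of these settings. Spearman's rho of abundance and detected share was 0.0984, and 0.20 for miRNAs with at least 10 sites. The number of PC miRNAs that passed was 5 with edgeR and 10 with DESeq2, which held the same 5, and 0 to 4 with 1 library left out. The number of target genes that passed was 1, and 2 with a pseudocount of 0.1, and 0 to 3 with 1 library left out. Median-ratio scaling also called 1, but another gene. Replicate numbers did not pair the plants, as same-numbered libraries had correlations of -0.18 to 0.01 for miRNAs and -0.05 to 0.17 for mRNA. With the replicate number as a block, 0 PC miRNAs and 0 target genes passed. PC-5p-1207_2622, at a log2 fold change of -0.07, turned to 0.11 without Vs replicate 1 and to 0.15 without Vv replicate 3, in a range of -0.35 to 0.15 without 1 library. Of 5 target genes that did not pass, LHY turned from 0.28 to -0.36 without Vv replicate 3 (-0.36 to 0.60 without 1 library), VIT_05s0020g04610 from -0.38 to 0.22 without Vs replicate 1 (-1.06 to 0.22), VIT_06s0004g01030 from 0.28 to -0.12 without Vs replicate 1 and -0.21 without Vv replicate 3 (-0.21 to 1.01), VIT_11s0016g05740 from 0.42 to -0.061 (-0.061 to 0.90) and VIT_15s0048g01240 from 0.69 to -0.017 (-0.017 to 1.46), both without Vv replicate 3. For the named miRNAs and genes, 180 alternative values kept direction and call, 30 lost the call, 2 gained it (PC-5p-3262_1082 with DESeq2 and VIT_06s0004g00440 without Vs replicate 3) and 8 changed sign. The causes were not tested. Few reads per cut, with a median of 2, limit what can be said of single sites.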

Other observations

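Seeds were shared widely among the PC miRNAs with predicted sites. Bases 2 to 8 were the same in 2 or more of them for 43 seeds, which covered 120 miRNAs. The seed AAACACT was found in 10 miRNAs with 63 sites, of which 0 were detected, and the seed AAAACAC in 6 miRNAs with 20 sites, of which 6 were detected, all on the peroxidase gene VIT_02s0012g00540. Both arms were listed for 111 hairpins.

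In 1 pair, a longer sequence did not carry the sites of a shorter one. By contrast, PC-5p-3262_1082 and PC-3p-286003_16 shared most of their predicted genes with a shorter known form. PC-5p-1646393_3, of 18 nt, is contained whole in PC-5p-39943_146, of 23 nt, and yet they were predicted on 30 genes and 1 gene with 0 in common.
PC-5p-1646393_3: aAGGTGAAttactcatga
PC-5p-39943_146: tGGCAAGGtgaattactcatgat
Their counts differed too, with 1, 0.5 and 2.5 in Vs hybrids and 1, 0 and 1.5 in Vv plants for PC-5p-1646393_3, while PC-5p-39943_146 had 0, 1 and 0 in Vs hybrids and 50.5, 65 and 24.5 in Vv plants.

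Target genes with many PC miRNAs were few. Of the 813 genes, 743 were predicted for 1 PC miRNA and 21 for 10 or more, and these 21 held 570 sites, 12 of them detected. One was RARE1, of plastid RNA editing in Arabidopsis, with 22 miRNAs, 22 sites and 0 detected.

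PC-5p-1207_2622, among the 5 most abundant, had 439.5, 549 and 451 counts in Vs hybrids and 629, 545.5 and 884.5 in Vv plants, and PC-5p-25617_218 had 128, 215 and 148 in Vs hybrids and 160, 125 and 122 in Vv plants. Each had 1 predicted site, undetected, that of PC-5p-25617_218 on a gene annotated as the disease resistance protein RPM1.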
